A study of Mus musculus with 4 samples.

Results

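Hemoglobin-rich spots of the infarcted mouse heart were compared with the other spots of the same sections. A spot of a Visium slide is a small capture area that collects mRNA from the cells above it and counts molecules as UMIs (unique molecular identifiers). Spots were chosen by their hemoglobin share, the UMIs of genes whose symbols start with Hba- or Hbb- divided by all UMIs of the spot, and a share above 1% made a spot hemoglobin-rich. Of 9102 spots, 1599 were hemoglobin-rich and 7503 were not. The paper that reported these sections removed spots above 1% hemoglobin, as a filter for poor quality and for blood vessels. It also removed spots at the tissue edges, which were kept here. All spots came from hearts of adult ICR mice with myocardial infarction (MI), made by tying off the left anterior descending (LAD) coronary artery for good, with 1 frozen section of 1 mouse on each of days 1, 4, 7 and 14. No section of an unoperated or sham-operated heart was analysed here, and with 1 mouse per day the days were not compared by a test. The day 1 section had 261 such spots among 2151 (12.1%, exact 95% interval 10.8 to 13.6) and the day 4 section 347 among 2026 (17.1%, interval 15.5 to 18.8). The day 7 section had 336 among 2184 (15.4%, interval 13.9 to 17.0) and the day 14 section 655 among 2741 (23.9%, interval 22.3 to 25.5). These intervals, like all those given for a single section, cover counting error only.

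Hemoglobin is the oxygen carrier of red blood cells and is assembled from alpha chains, coded by the Hba genes, and beta chains, coded by the Hbb genes. Mature red cells of mice have lost their nucleus and make no new mRNA, but young red cells still carry much globin mRNA together with transcripts for heme synthesis, iron import and the membrane skeleton. In a tissue section hemoglobin transcripts therefore mark blood, whether inside vessels or chambers or spread into tissue. Platelets, leukocytes and the endothelium that lines vessels and chambers are the other cells commonly met beside blood, and mesothelium covers the outer surface of the heart. The spatial positions of the spots were not used here.

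Adult globins made up all hemoglobin UMIs. Hbb-bs, the major adult beta chain gene of this annotation (GRCm38 chromosome 7, 103826534 to 103828096, minus strand), gave 49.2 to 54.9% of the hemoglobin UMIs of hemoglobin-rich spots across the 4 sections, and Hba-a1 (chromosome 11, 32283511 to 32284465, plus strand) gave 34.6 to 41.9%. Hbb-bt, the other adult beta gene, gave 6.08 to 6.90%. Hba-a2, the other adult alpha gene, gave 7.64% on day 1 and 2.23 to 3.32% on the other days. Over their last 200 bases the adult alpha transcripts matched at 183 of 216 positions of the alignment (84.7%). The adult beta transcripts matched at 162 of 204 (79.4%). Positions with a gap in 1 copy were counted as mismatches, so the likeness of the bases that were paired is higher. Nearly all alpha mismatches were gaps, whereas most beta mismatches were paired bases that differed. The split of reads between the alpha copies is therefore uncertain. How reads split between the beta copies was not tested. The embryonic genes Hba-x, Hbb-y, Hbb-bh1 and Hbb-bh2 had 0 of 5202684 UMIs in hemoglobin-rich spots, which allows a level of up to 0.577 counts per 1000000 UMIs. Since these genes chose the spots, their levels are a description and no test was applied to them.

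The beta-to-alpha ratio of hemoglobin UMIs was 1.37, 1.34, 1.56 and 1.27 in hemoglobin-rich spots on days 1, 4, 7 and 14. In the other spots it was 1.47, 1.67, 1.79 and 1.56, above the hemoglobin-rich value in each section. The hemoglobin-rich spots held 66.9% of all hemoglobin UMIs and 9.21% of all UMIs. Their median hemoglobin count was 131, 87, 85.5 and 61 UMIs on days 1, 4, 7 and 14, against 3, 4, 11 and 7 in the other spots, and the highest share of a spot was 44.9%, on day 14. At the limit itself the spots formed a continuum, with 114 spots between 0.9 and 1% (median 51 hemoglobin UMIs) and 89 between 1 and 1.1% (median 56).

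Hemoglobin-rich spots were shallow on days 1, 4 and 14 but not on day 7. Leaving out hemoglobin, their median depth was 2110 UMIs against 6407.5 in the other spots on day 1, 2477 against 8797 on day 4 and 1110 against 8286 on day 14. On day 7 the medians were 5000.5 and 5168.5, so the medians nearly coincided. In the shallowest decile of spots, 51.9%, 71.4% and 72.4% were hemoglobin-rich on days 1, 4 and 14, and 7.76% on day 7. Of the 345 hemoglobin-rich spots under 1000 UMIs, 304 lay in the day 14 section. Total UMIs are the denominator of the share, so a spot with little other mRNA passes the limit with fewer hemoglobin UMIs, and depth is given as a description. The median log2 depth ratio over sections averaged -1.60 (SD 1.18, n = 4), lower in 4 of 4 sections.

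**Figure D1:**
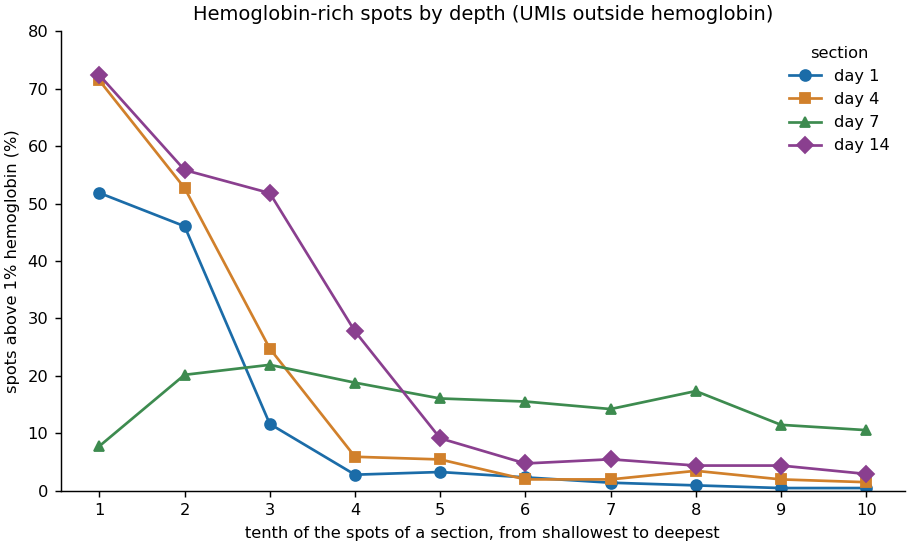
Percentage of spots above 1% hemoglobin (vertical axis) in each of 10 equal groups of the spots of a section, ordered from the shallowest to the deepest by UMIs outside the hemoglobin genes (horizontal axis), with 1 line per section. On days 1, 4 and 14 the hemoglobin-rich spots sit among the shallowest spots (51.9%, 71.4% and 72.4% of the first group), whereas on day 7 they are spread over all depths (7.76% of the first group).

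To ask which genes accompanied hemoglobin in every section, UMIs of all other genes were summed over the hemoglobin-rich and over the other spots of each section and compared within sections, with levels in CPM (counts per 1000000 UMIs outside the hemoglobin genes). Of 11779 genes tested, 33 were higher in hemoglobin-rich spots (0.280%) and 0 were lower (0%) at an adjusted p under 0.05 by the edgeR quasi-likelihood test with the section as a block. A spot covers several cells, so more cells of a type and more mRNA per cell cannot be told apart. At an unadjusted p under 0.05, 332 were higher and 238 lower, and DESeq2 called 22 higher and 0 lower. Of the 33 genes, 23 were higher in 4 of 4 sections, 9 in 3 and 1 in 2, and 11 were called whichever section was left out (among them Tent5c, Ppbp, Mkrn1, Slpi, Nkain4, Cd24a, Malat1, Vwf, Adgrd1 and Nrgn). Leaving out day 1 left 17 genes, day 4 left 20, and day 7 raised the count to 49. Most were sparse, with 22 of the 33 below 1000 UMIs over all spots. The minimum of 100 UMIs for a gene to be tested counted both classes. A sparse gene could therefore reach it through the spots where it was high. Tent5c, Ppbp, Nrgn, Trbc2 and Upk1b were among the genes below 100 UMIs in the other spots alone. Their calls are not independent of that filter. Over all genes tested the median log2 fold change was -0.006. The largest fold changes belonged to genes known from red cells and platelets.

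Red cell genes other than hemoglobin were the group with the most called genes. Of 38 genes listed, 27 were tested, 6 were higher and 0 lower, and the median log2 fold change of the 27 was 0.25, with 22 above 0. Over all 11779 genes tested, 33 were higher and 5749 had a log2 fold change above 0. Tent5c, which codes for a poly(A) polymerase, was at 34.0, 14.4, 14.5 and 11.6 CPM in hemoglobin-rich spots on days 1, 4, 7 and 14 and at 1.17, 2.16, 2.59 and 1.59 CPM in the other spots, a log2 fold change of 3.21 ± 0.34 (SE, adjusted p = 9.99e-07). The groups did not overlap. Tent5c lies on chromosome 3 (100451628 to 100489324).

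Genes of red cell metabolism and iron import followed with smaller differences. Bpgm makes the metabolite that lowers the oxygen affinity of hemoglobin. It was at 41.8, 26.3, 21.2 and 23.2 CPM in hemoglobin-rich spots and 7.70, 8.72, 11.4 and 10.1 CPM in other spots, with a log2 fold change of 1.49 ± 0.22 (SE, adjusted p = 0.000436). Slc25a37, the mitochondrial iron importer mitoferrin, was at 46.4, 34.7, 24.2 and 16.1 CPM against 15.5, 14.2, 16.2 and 9.31 CPM (log2 fold change 1.098 ± 0.181, adjusted p = 0.000127). Day 7 had the smallest ratio for Tent5c, Bpgm and Slc25a37. Mkrn1, a ubiquitin ligase gene, and Isg20, a gene for an RNA exonuclease, had log2 fold changes of 1.08 ± 0.15 (adjusted p = 5.97e-06) and 1.99 ± 0.25 (adjusted p = 3.24e-05). Bpgm lost its call without day 4, Isg20 without day 1, and Slc25a37 without either of these days.

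Alas2, the red cell enzyme that starts heme synthesis, had the largest ratios of the red cell list and the least settled test. It had 87, 87, 75 and 141 UMIs in hemoglobin-rich spots and 23, 29, 62 and 65 in the far more numerous other spots. Its level was 135, 73.7, 45.4 and 90.9 CPM against 1.93, 2.02, 6.69 and 4.14 CPM. All 4 hemoglobin-rich values lay above all 4 other values, at ratios of 69.9 (exact 95% interval 43.7 to 116), 36.4 (23.7 to 57.5), 6.78 (4.78 to 9.65) and 21.9 (16.2 to 29.9). The fit gave a log2 fold change of 4.55 ± 0.68 (SE) and an adjusted p = 0.525. Without robust estimation of dispersion, chosen after seeing the data, the adjusted p was 5.20e-10, and DESeq2 gave 1.07e-08. Leaving out day 7, the section with the smallest ratio, gave 8.42e-07, and leaving out any other section gave 0.758 to 1.00.

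Heme synthesis genes that the heart also uses differed less. Fech, which inserts iron in the last step of heme synthesis, was at 135, 72.8, 96.2 and 119 CPM in hemoglobin-rich spots and 84.8, 70.2, 69.3 and 85.4 CPM in other spots (log2 fold change 0.47 ± 0.12, adjusted p = 0.0599). The most abundant members of the list, Ank1 (an ankyrin of the membrane skeleton) and Slc25a39 (a mitochondrial carrier), had log2 fold changes of -0.08 and 0.23, each with an adjusted p of 0.999. Summed over 37 genes, the list was at 1158, 866, 981 and 1007 CPM in hemoglobin-rich spots against 727, 655, 823 and 748 CPM, or 1.59-, 1.32-, 1.19- and 1.35-fold. Handling of free heme and iron was a separate list, of which 0 of 22 tested genes passed (median log2 fold change 0.08). Hmox1, which breaks down heme, was at 26.3, 55.9, 10.9 and 11.6 CPM in hemoglobin-rich spots and 42.4, 79.6, 10.5 and 5.42 CPM in other spots (log2 fold change -0.13, adjusted p = 0.999).

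**Figure D2:**
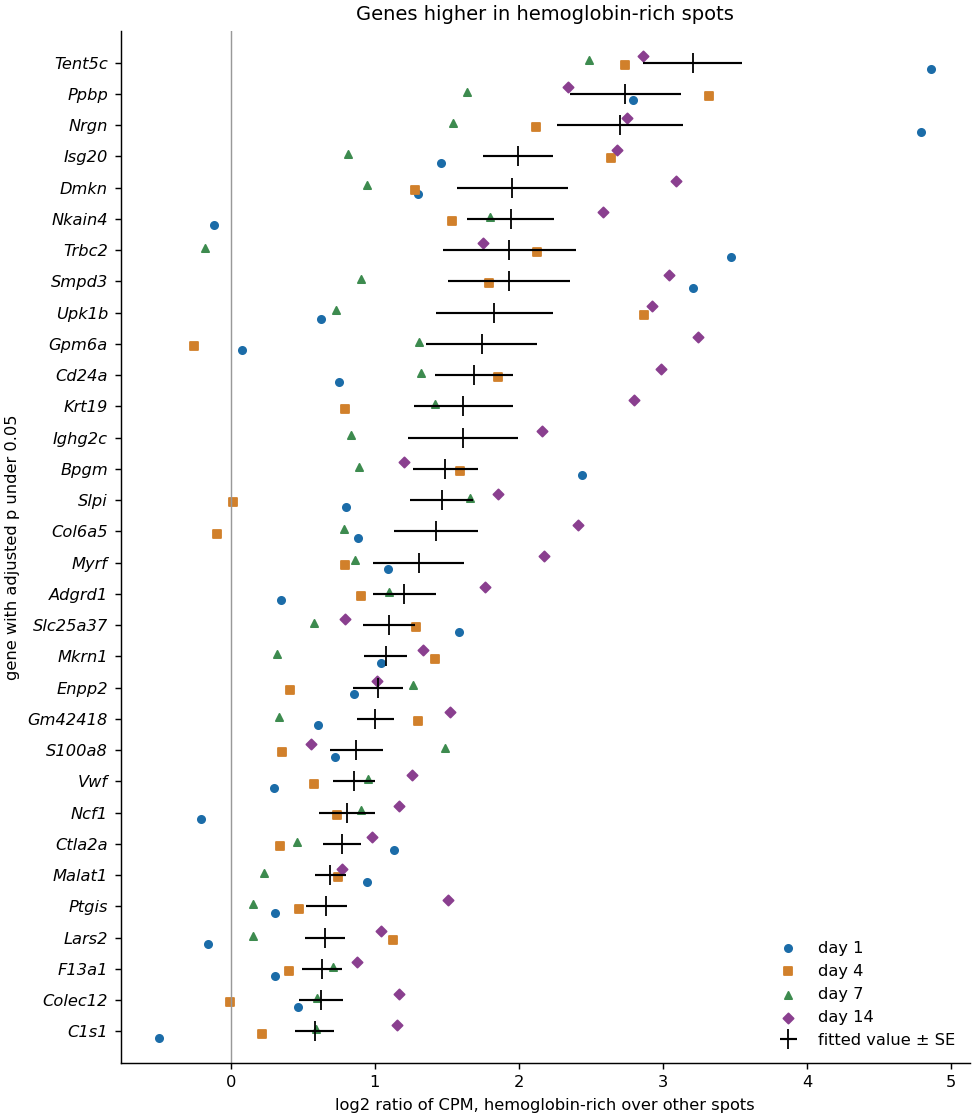
Genes with an adjusted p under 0.05 (vertical axis, 32 of the 33) and their log2 ratios of CPM, hemoglobin-rich over other spots (horizontal axis). Coloured points are the 4 sections and black marks the fitted value with its SE; sections where a gene had no UMIs in a class have no point. Tent5c and the platelet genes Ppbp and Nrgn lie farthest to the right, at fitted values of 3.21, 2.74 and 2.70.

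Of 5 platelet genes tested, 2 were higher (Ppbp and Nrgn) and 0 lower, and the median log2 fold change was 0.76. Both called genes were below 100 UMIs in the other spots alone, so their calls and this median depend on the minimum for testing. Over all 11779 genes tested, 33 were higher. The summed level of the 14 listed platelet genes was 1.40-, 0.997-, 1.69- and 1.68-fold that of all other spots on days 1, 4, 7 and 14, and 0.759-, 0.613-, 1.80- and 0.720-fold that of other spots of the same depth. Ppbp, a platelet chemokine, had 15, 14, 5 and 7 UMIs in hemoglobin-rich spots, or 23.2, 11.9, 3.02 and 4.51 CPM, against 3.35, 1.19, 0.972 and 0.893 CPM in other spots. Its ratio exceeded 1 in 4 of 4 sections, with a log2 fold change of 2.74 ± 0.38 (SE, adjusted p = 2.64e-06). Nrgn, a calmodulin-binding protein of platelets and neurons, was at 23.2, 8.47, 8.47 and 6.44 CPM against 0.838, 1.95, 2.92 and 0.956 CPM (log2 fold change 2.70 ± 0.44, adjusted p = 0.00188). Pf4, a chemokine that macrophages also express and that was the most abundant of the list, differed in direction, at 0.81-, 0.69-, 1.72- and 1.39-fold (log2 fold change 0.17, adjusted p = 0.999). Alox12 and Itga2b, a platelet lipoxygenase and integrin, had log2 fold changes of 0.25 and 0.76 with adjusted p of 0.999.

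Leukocyte genes gave few calls. Of 8 neutrophil genes tested, 1 was higher, S100a8, a subunit of calprotectin, at 82.0, 10.2, 18.8 and 17.4 CPM against 49.6, 7.95, 6.69 and 11.9 CPM (log2 fold change 0.87 ± 0.18, adjusted p = 0.00601), a call lost without day 1 or day 7 and with DESeq2. Against other spots of the same depth its log2 fold change was -0.62 (adjusted p = 0.777). Its partner S100a9 was at 1.96-, 1.77-, 3.02- and 0.72-fold (adjusted p = 0.999). Of 2 lymphocyte genes tested, Trbc2, the constant part of the T cell receptor beta chain, was higher in 3 of 4 sections, with 9, 9, 3 and 6 UMIs in hemoglobin-rich spots against 15, 25, 19 and 18 (log2 fold change 1.93 ± 0.46, adjusted p = 0.0492), a call lost without day 1 or day 4. Ighm, the heavy chain of immunoglobulin M, was at 2.68-, 0.79-, 1.08- and 2.37-fold (adjusted p = 0.744). The 15 lymphocyte genes summed to 34, 37, 42 and 61 UMIs in hemoglobin-rich spots, and to 3.63-, 1.69-, 1.17- and 2.41-fold the level of the other spots. Against other spots of the same depth their sum was at 2.16-, 0.673-, 1.08- and 0.501-fold. Trbc2 was not called there (log2 fold change 0.28), nor with DESeq2. Of 10 monocyte genes and 15 macrophage genes, 0 were higher and 0 lower.

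Mesothelial genes had the highest median of all lists. Of 9 tested, Upk1b, Krt19 and Gpm6a were higher, 0 were lower, and the median log2 fold change was 1.59. Upk1b, a uroplakin of epithelia, was at 1.55, 2.54, 7.87 and 13.5 CPM against 1.01, 0.349, 4.75 and 1.79 CPM (log2 fold change 1.83 ± 0.41, adjusted p = 0.0142). Krt19, a keratin, had 0 UMIs in the hemoglobin-rich spots of day 1 and was 1.74-, 2.66- and 6.95-fold the other spots on days 4, 7 and 14 (adjusted p = 0.0142). Gpm6a, a membrane glycoprotein, was at 1.06-, 0.84-, 2.48- and 9.48-fold (adjusted p = 0.0444). All of these calls were lost without day 14, among other sections. They were also lost with DESeq2, without robust estimation of dispersion and with unadjusted library totals. The most abundant members, Upk3b and Msln, were 12.5-fold (exact 95% interval 8.34 to 18.7) and 9.42-fold (6.40 to 13.8) on day 14 but 1.92- and 0.99-fold on day 7, with adjusted p of 0.969 and 0.999. The summed list was at 32.5, 44.0, 144 and 178 CPM in hemoglobin-rich spots and 29.6, 26.4, 89.4 and 26.2 CPM in other spots.

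The vessel wall showed 1 called gene among its lists. Vwf, which codes for the protein that tethers platelets and is made by endothelium and megakaryocytes, was at 38.7, 48.3, 46.0 and 43.2 CPM in hemoglobin-rich spots and 31.4, 32.4, 23.8 and 18.0 CPM in other spots. It was higher in 4 of 4 sections and the groups did not overlap (log2 fold change 0.85 ± 0.14, adjusted p = 9.46e-05). Of the other 12 endocardial and venous genes tested 0 passed, among them Emcn and Mmrn2 at log2 fold changes of 0.06 and -0.07. Npr3, a natriuretic peptide receptor of the endocardium, was at 1.32-, 2.14-, 2.88- and 1.59-fold (log2 fold change 1.06, adjusted p = 0.353). Of 15 capillary genes 0 passed, and Pecam1, a junction protein of all endothelium, was at 41.8, 49.97, 67.8 and 37.4 CPM against 46.6, 40.4, 59.3 and 30.7 CPM (log2 fold change 0.23, adjusted p = 0.999). No gene passed among 11 arterial, 12 smooth muscle, 10 pericyte or 6 lymphatic genes. Of 16 coagulation genes, Vwf and F13a1, the A subunit of factor XIII, were higher, the latter at 1.23-, 1.32-, 1.63- and 1.83-fold (log2 fold change 0.63 ± 0.14, adjusted p = 0.0128). F13a1 lost its call without the section of day 1, 4 or 7.

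Among genes of at least 1000 UMIs with the same direction in all 4 sections, 8 passed, and besides Mkrn1, Vwf, S100a8 and F13a1 these were Gm42418, Ctla2a, Malat1 and Ptgis. Gm42418, whose locus overlaps a ribosomal RNA repeat, was at 670, 1085, 460 and 798 CPM against 442, 441, 365 and 278 CPM (log2 fold change 1.00 ± 0.13, adjusted p = 0.000158). Malat1, a long RNA kept in the nucleus, was at 153, 261, 344 and 304 CPM against 79.6, 156, 293 and 178 CPM (log2 fold change 0.69 ± 0.11, adjusted p = 8.00e-05). Neat1, the other abundant nuclear RNA, was at 0.66-, 0.90-, 0.92- and 1.02-fold (adjusted p = 0.999). Ctla2a, related to protease inhibitors, and Ptgis, the prostacyclin synthase, were higher by 0.77 ± 0.13 and 0.66 ± 0.14 on the log2 scale (adjusted p of 0.000436 and 0.0387). Gm42418 and Ctla2a lost their calls without day 1, and Ptgis without day 1, 4 or 14. Against other spots of the same depth Gm42418, Ctla2a, Malat1 and Ptgis were not called, and the log2 fold change of Ptgis was -0.31. The remaining called genes, all but Lars2 named after their values were seen, were Slpi, Nkain4, Cd24a, Enpp2, Adgrd1, Dmkn, Col6a5, Smpd3, Ighg2c, Lars2, C1s1, Ncf1, Myrf and Colec12, with log2 fold changes from 0.58 (C1s1) to 1.95 (Dmkn). Ighg2c, an immunoglobulin constant region, had 0 UMIs in the hemoglobin-rich spots of day 1 and of day 4, 7 UMIs on day 7 and 42 on day 14.

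Summed over the spots of a class, cardiomyocyte genes differed little between hemoglobin-rich and all other spots. Of 18 tested 0 were higher and 0 lower, and the median log2 fold change was 0.01. Summed, they were at 84139, 68642, 89976 and 95435 CPM in hemoglobin-rich spots and 90594, 74165, 86899 and 100343 CPM in other spots, or 0.93-, 0.93-, 1.04- and 0.95-fold. Myh6, the main myosin heavy chain of the adult mouse heart, was at 0.85-, 0.96-, 1.07- and 1.04-fold, and Mb, myoglobin, at 0.90-, 0.85-, 1.02- and 0.90-fold. As summed classes, the hemoglobin-rich spots thus held muscle mRNA in nearly the share of the other spots. Spot by spot, 46 of 261, 122 of 347, 174 of 336 and 303 of 655 hemoglobin-rich spots reached their section's median cardiomyocyte share. Among other spots 1030 of 1890, 891 of 1679, 918 of 1848 and 1068 of 2086 did. Against other spots of the same depth the list was higher in 4 of 4 sections, at 1.04- to 1.38-fold. Across 5153 genes of at least 1000 UMIs, the Pearson correlation of log2(CPM + 1) between the classes was 0.967, 0.985, 0.985 and 0.976 on days 1, 4, 7 and 14, a description over genes of the same section, which are not independent. Fatty acid oxidation (20 genes), hypoxia response (16), immediate early (17) and ribosomal protein (80) genes also had 0 calls, with median log2 fold changes from -0.08 to 0.04. Genes of border zone stress (12 tested, 0 called) all had log2 fold changes below 0, with a median of -0.20, and fast skeletal muscle genes (13 tested, 0 called) had a median of -0.71. Of all 11779 genes tested, 5749 had log2 fold changes above 0. The 7 adipocyte, 6 atrial and 13 flow responsive endothelial genes tested also had 0 calls, with medians of 0.69, -0.01 and 0.15.

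**Figure D3:**
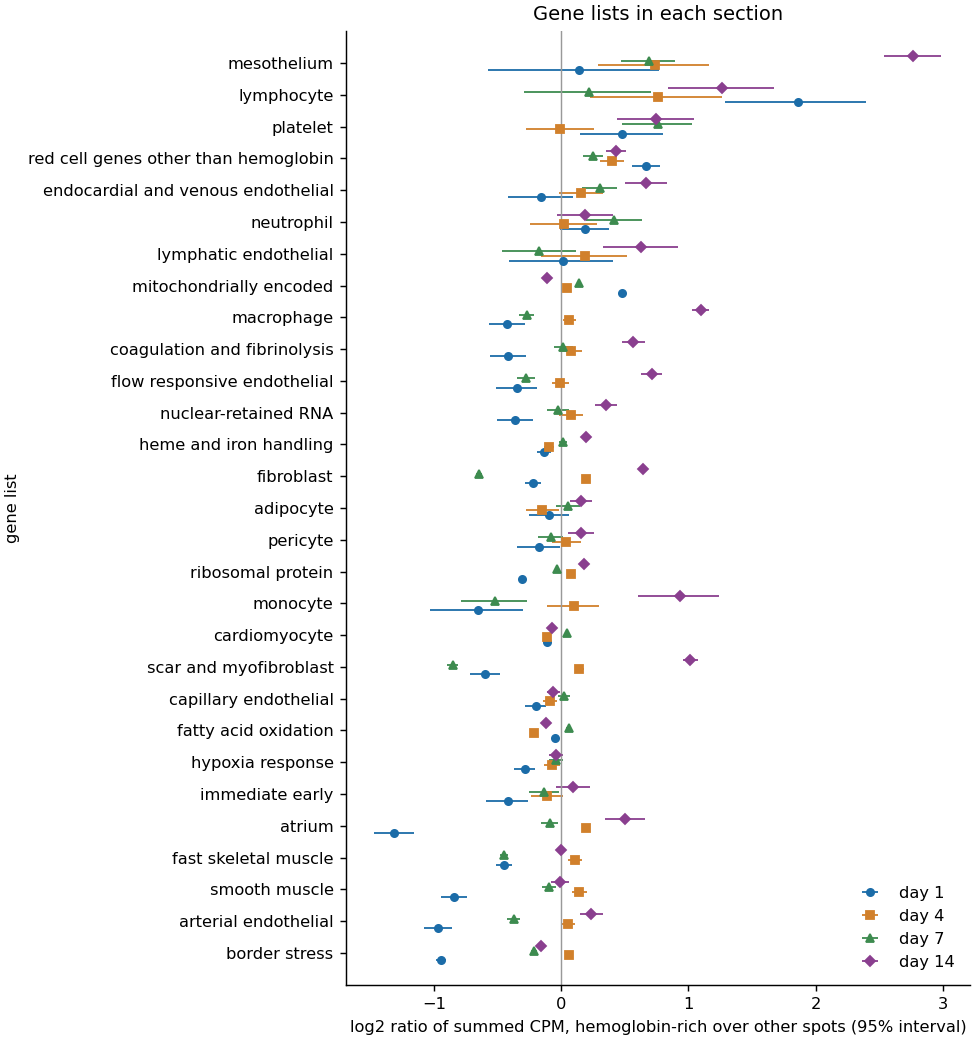
Log2 ratio of the summed CPM of each of 29 gene lists, hemoglobin-rich over other spots (horizontal axis), for the 4 sections, with exact 95% intervals for counting error; lists are ordered by their mean. The red cell, neutrophil, lymphocyte and mesothelium lists lie above 0 in 4 of 4 sections, among which the red cell intervals alone exclude 0 in every section, and the scar and macrophage lists spread to both sides.

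The level of red cell transcripts followed the hemoglobin share beyond the 1% limit. In spots at or below 0.1% hemoglobin the red cell list was at 728, 654, 755 and 753 CPM on days 1, 4, 7 and 14. Between 1 and 2% it was at 800, 735, 919 and 829 CPM, and between 5 and 10% at 1163, 1134, 1185 and 1513 CPM. Above 10% it reached 1968, 1581, 2506 and 2527 CPM, where days 4 and 7 had only 8 and 13 spots. On day 7 the group between 5 and 10% held 14 spots, so the values of that section rest on few spots above 5%. The mesothelium list followed hemoglobin on 2 of the days, at 1128 CPM above 10% on day 7 and 458 CPM on day 14. On days 1 and 4 it was at 25.4 and 0 CPM there, the latter from 0 UMIs (exact 95% interval up to 216 CPM). Platelet genes were at 254, 176, 971 and 254 CPM above 10% hemoglobin, against 58.4, 107, 61.7 and 50.3 CPM between 1 and 2%. The values above 10% rest on 30, 3, 31 and 15 UMIs. The day 4 interval there (36.2 to 513 CPM) includes the value between 1 and 2%. Depth also differed between these groups, with medians of 430 and 4007 UMIs on day 14. Cardiomyocyte genes were lowest above 10%, at 77830, 50003, 36739 and 81820 CPM.

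**Figure D4:**
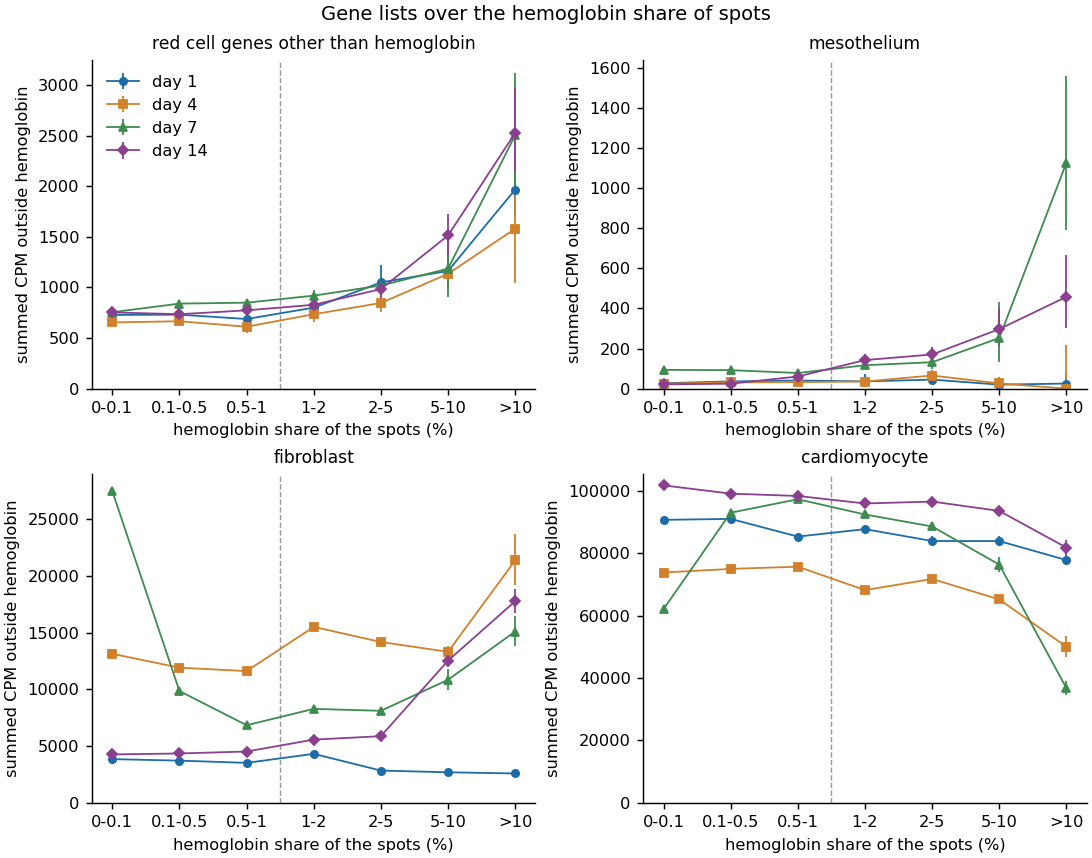
Summed CPM of 4 gene lists (vertical axes, with exact 95% intervals) in spots grouped by hemoglobin share (horizontal axes); the dashed line marks 1% and each line is a section. The red cell list is highest above 10% in each section (1968, 1581, 2506 and 2527 CPM), the mesothelium list climbs on days 7 and 14, and on day 7 the fibroblast list is highest in spots with the least hemoglobin.

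Against all other spots, the transcripts that accompanied hemoglobin differed from section to section. Depth was not matched in these values. On day 1, hemoglobin-rich spots held more mitochondrially encoded mRNA, 372857 against 267709 CPM or 1.39-fold, and fewer transcripts of stressed cardiomyocytes, 7465 against 14356 CPM or 0.52-fold. The genes with the lowest bounds there were Npr2, Sprr1a, Tor3a, Acta1 and Nppa. Sprr1a, a stress protein of injured cardiomyocytes, had 3 UMIs against 648 (4.64 against 54.3 CPM), and Nppa, the atrial natriuretic peptide gene, was at 508 against 1313 CPM. The genes with the highest bounds on day 1 were Bc1, Pabpc1, Ctla2a, mt-Co2 and mt-Nd1. Bc1, a small RNA that binds poly(A)-binding protein, was at 912 against 332 CPM, and Pabpc1, the gene of that protein, at 231 against 110 CPM. Over all sections these 2 genes were at 2.75-, 2.495-, 1.04- and 1.99-fold and at 2.11-, 2.37-, 1.21- and 4.14-fold, with adjusted p of 0.999 and 0.921.

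On day 4 the cardiomyocyte, border stress, fatty acid oxidation, fibroblast and scar lists lay between 0.86- and 1.15-fold. Bc1, Gm42418, Pabpc1, Mkrn1 and Lars2 had the highest bounds. Cox11, Ccl2, Cyb5r1, Igha and Wdr83 had the lowest, among them Ccl2, a chemokine that draws monocytes, at 19.5 against 40.7 CPM. On day 7 connective tissue genes were lower in hemoglobin-rich spots. The scar and myofibroblast list was at 2758 against 4983 CPM (0.55-fold) and the fibroblast list at 8447 against 13219 CPM (0.64-fold). Col1a1, a chain of type I collagen, was at 1114 against 2591 CPM. Spp1, osteopontin, was at 0.24-fold (38 against 880 UMIs) and Gpnmb, a glycoprotein of lipid-laden macrophages, at 4.84 against 30.0 CPM. Tnc and C1qtnf3 completed the 5 genes with the lowest bounds. Ccl6, S100a9, Saa3, S100a8 and Folr2 had the highest, among them Ccl6, a chemokine of myeloid cells, at 140 against 57.0 CPM.

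On day 14 the same lists lay on the other side. The scar and myofibroblast list was at 1907 against 943 CPM (2.02-fold), the fibroblast list at 6765 against 4319 CPM (1.57-fold) and the macrophage list at 1306 against 611 CPM (2.14-fold). Cfd and Car3, genes of fat cells, were at 126 against 7.84 CPM and 38.7 against 5.55 CPM. Arg1, an arginase of reparative macrophages, was at 18.0 against 2.23 CPM and Saa3, an acute phase gene, at 222 against 42.0 CPM. Pabpc1 was the other gene with the highest bounds. Casq1, Larp1b, Immp1l, Ddx56 and Acta1 had the lowest. With 1 mouse on each day, the day, the animal and the plane of the section cannot be told apart in these differences.

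Since hemoglobin-rich spots were shallow on 3 days, they were also set against other spots of the same section with the nearest depth. This paired 250, 242, 335 and 477 hemoglobin-rich spots with as many others, and medians then lay at 2208.5 against 2162.5, 3282.5 against 3499, 5002 against 5004 and 1792 against 1790 UMIs. In this comparison 366 genes were higher (3.11%) and 370 lower (3.14%) by edgeR's quasi-likelihood test, and 9 of the 33 genes were again called higher. Of the red cell list 8 of 27 were higher and 0 lower, with Alas2 at a log2 fold change of 4.06 ± 0.29 (adjusted p = 2.25e-09) and Fech at 0.85 ± 0.15 (adjusted p = 0.000276). Ppbp and Nrgn remained called (adjusted p of 0.0171 and 0.00799), with the same minimum of UMIs over all spots. The mesothelial genes did not, with 0 of 9 called and a median log2 fold change of 0.34, nor did Vwf. The summed mesothelium list was at 0.315-, 0.569-, 1.315- and 1.232-fold on days 1, 4, 7 and 14.

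Against depth-matched spots, 14 of 18 cardiomyocyte, 18 of 20 fatty acid oxidation and 12 of 13 mitochondrially encoded genes were higher and 0 lower, with medians of 0.61, 0.57 and 0.87. All 14 scar and myofibroblast genes were lower (median -1.11), and 8 of 14 fibroblast and 8 of 15 macrophage genes were lower. Among them were Timp1, an inhibitor of matrix proteases, at -1.24 ± 0.14 (adjusted p = 3.72e-08), and Tnc, tenascin C, at -1.41 ± 0.19 (adjusted p = 2.31e-06). The depth-matched other spots themselves held more of these transcripts than all other spots did, with the scar list at 2971 against 1463 CPM on day 1, 11904 against 5362 on day 4, 5252 against 4983 on day 7 and 5103 against 943 on day 14. Shallow spots at or below 1% hemoglobin thus held more scar transcripts than all other spots on days 1, 4 and 14, and the part of depth and that of tissue type in the difference was not tested. Of the 29 lists, 4 were higher in 4 of 4 sections against all other spots (red cell, neutrophil, lymphocyte and mesothelium), and of these only the red cell list was also higher in 4 of 4 against depth-matched spots, at 1.52-, 1.21-, 1.14- and 1.19-fold.

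**Figure D5:**
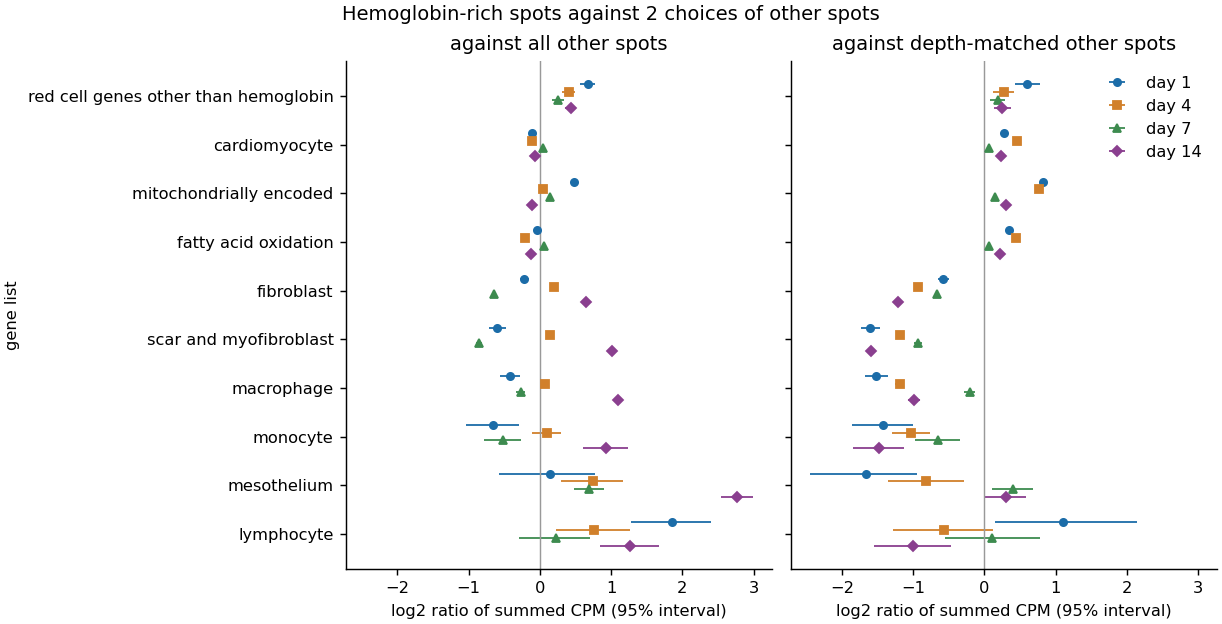
Log2 ratios of the summed CPM of 10 gene lists, hemoglobin-rich spots over all other spots (left) and over other spots of the same depth (right), with exact 95% intervals for counting error and 1 marker per section. The red cell list stays above 0 in all 4 sections on both sides, while the scar list moves from 0.55- to 2.02-fold on the left to 0.33- to 0.53-fold on the right.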

How the data were processed

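Visium mRNA libraries of 4 sections were used. Per the submitters' processing notes, the authors used Space Ranger 1.3.0 and mm10, and Seurat 4.1.1 is also named. The deposited tables hold raw UMI counts for each gene in spots under tissue, with 10983077 to 17315715 UMIs per section. The sections share 1572 to 1918 spot barcodes in pairs, since barcodes mark positions of the array.

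UMIs outside the 8 hemoglobin genes were summed per section and spot class into 8 libraries. Genes with at least 100 UMIs were tested with edgeR 4.0.16 (TMM, robust quasi-likelihood, section as a block, 3 residual degrees of freedom, limma 3.58.1, R 4.3.3), with Benjamini-Hochberg adjustment over all 11779 genes at 0.05. SE is the log2 fold change over the square root of F. The test measures the spread over 4 mice of different days. CPM intervals are exact Poisson and ratio intervals exact conditional, at 95%. For depth matching, hemoglobin-rich spots were taken in random order. Each was paired with the nearest unused other spot within 1.25-fold in depth, and was left out where none remained. The fits were tested on simulated data. DESeq2 1.42.0 was an alternative. Gene positions are from GENCODE vM21.

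The spots, genes and lists were chosen with earlier results of these data known. Named genes were the 12 largest rises and falls among genes of at least 1000 UMIs passing the test with 1 direction in 4 sections, 5 genes each way per section by interval bounds, the 3 most abundant members of each of 29 lists, and Alas2, Bpgm, Hmox1, Vwf, Npr3 and Pecam1. Other genes named were chosen after their values were seen. Of the called genes, 1 is not reported here.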

Additional observations from a re-analysis of the deposited data

Results flagged for a closer look

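In 8 gene lists the summed level of the hemoglobin-rich spots was at least 1.277-fold that of the other spots in 1 section. In another section it was at most 0.786-fold, with intervals on opposite sides of 1. Other lists, among them the arterial endothelial and smooth muscle lists, also had intervals on opposite sides of 1 but did not reach both ratios. Most UMIs of the arterial list are Clu and most of the smooth muscle list are Des, both also border stress genes. The difference between sections was not tested, since each day is 1 mouse, and the ratios are those of hemoglobin-rich over other spots. The monocyte list was at 1.91-fold on day 14 and at 0.636- and 0.697-fold on days 1 and 7. The macrophage list was at 2.14-fold on day 14 and 0.747-fold on day 1. The fibroblast list was at 1.57-fold on day 14 and 0.639-fold on day 7. The scar and myofibroblast list was at 2.02-fold on day 14 and at 0.662- and 0.554-fold on days 1 and 7. The atrium list, most of whose UMIs are Nppa, was at 1.42-fold on day 14 and 0.404-fold on day 1. The coagulation and fibrinolysis list was at 1.48-fold on day 14 and 0.750-fold on day 1. The flow responsive endothelial list, which shares Fn1 with the scar list, was at 1.64-fold on day 14 and 0.786-fold on day 1. The nuclear-retained RNA list was at 1.28-fold on day 14 and 0.780-fold on day 1. In each case the ratio of at least 1.277 came from day 14, the section with the shallowest hemoglobin-rich spots (median 1110 UMIs). On day 4 the fibroblast (1.146-fold), scar and myofibroblast (1.104-fold), atrium (1.146-fold) and macrophage (1.047-fold) lists also lay above 1, with intervals that exclude 1. The day 4 intervals of the remaining lists of the 8 included 1. Against other spots of the same depth all 8 day 14 ratios lay below 1, at 0.359 (monocyte), 0.503 (macrophage), 0.433 (fibroblast), 0.331 (scar and myofibroblast), 0.385 (atrium), 0.599 (coagulation and fibrinolysis), 0.474 (flow responsive) and 0.689 (nuclear-retained RNA).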

How the results depend on the processing

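The count of genes called depended strongly on the choices made. Against 33 higher and 0 lower, a limit of 0.5% gave 11 and 0, a limit of 2% 26 and 5, other spots at or below 0.5% 25 and 0, spots of at least 1000 UMIs 37 and 8, depth-matched spots 366 and 370, spots rich in cardiomyocyte transcripts 18 and 0, unadjusted library totals 11 and 0, DESeq2 22 and 0, a minimum of 1000 UMIs per gene 3 and 0, a minimum of 10 UMIs 57 and 11, and no section block 3 and 0. Of the alternatives added after seeing the data, spots above 5% hemoglobin gave 49 and 11. A fit without robust estimation gave 29 and 0, with 23 of the 33 genes kept. Leaving out mitochondrially encoded genes gave 33 and 0. Leaving out 1 section gave 17 (day 1) to 49 (day 7) higher and 0 to 17 lower, the 17 without day 14. Of the 33 genes, 11 were called whichever section was left out. Tent5c passed in every alternative that tested it, though it rests on 175 UMIs. Apart from the minimum of 10 UMIs, these alternatives kept the main minimum of UMIs, counted over the spots of both classes. Passing them therefore does not remove the dependence of its call on that filter. Against depth-matched spots C1s1 (-0.073), Col6a5 (-0.37), Ncf1 (-0.26), Ptgis (-0.31), S100a8 (-0.62) and Slpi (-0.082) had negative log2 fold changes, as had Enpp2 (-0.15) in cardiomyocyte-rich spots, and the cause was not tested. Of 526 list medians in the alternatives, 474 moved by less than the SD over sections of the list's summed log2 ratio. That SD is of another measure than the medians, and it is wide for lists that changed direction between sections. Hemoglobin-rich spots were shallower under every limit, by -1.81 to -1.32 on the mean log2 scale, and by -2.11 to -1.16 with a section left out, although at a limit of 0.5% they were slightly deeper on day 7. The spot classes of a section are paired by the section block of the fit. No paired analysis by replicate number was possible because each day has 1 section.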
